A study of Mus musculus with 10 samples.

Results

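The effect of depolarization on ribosome occupancy was measured as ribosome footprints (RF) on coding sequences. The 5 RF libraries of the study's 10 were used for it, 3 from untreated cultures (numbered 1 to 3) and 2 from KCl-treated cultures (4 and 5). All were cortical cells of newborn FVB mice kept in culture for 7 days, in which neurons and glia grew together. The treated cultures received KCl to 55 mM for 3 h, and every culture received cycloheximide for 7 min before lysis. RNAseq libraries of the same 5 cultures are given beside the footprints. A further KCl replicate had been removed by the authors for its low library size, so the treated group rests on 2 cultures. Each gene was represented by its Ensembl transcript with the highest mean CDS footprint count, which gave 11996 genes with a footprint, and 6327 genes were kept because they reached an RPKM of 10 in at least 2 RF libraries. Of these, 126 reached the limit in the KCl libraries only and 578 in untreated libraries only. Such a gene had to differ between the groups to be kept, and counts that include it are a description. For the lists below, only members kept through the KCl libraries only are numbered. Members kept through untreated libraries only were not counted by list, and the falls carry the same limit.

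Ribosome profiling sequences the stretch of mRNA that a ribosome shields from nuclease, so that the number of footprints on a coding sequence reports how many ribosomes were on that mRNA, from its abundance and its translation together. Raised extracellular potassium depolarizes neurons and glia and opens voltage-gated calcium channels in neurons. Calcium entry then starts a transcriptional program of immediate-early transcription factors, followed by secreted proteins, synaptic proteins and inhibitors of the same signalling. Astrocytes buffer potassium and swell when it rises, and they are a main cell of newborn cortical cultures.

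Between 1463654 and 7719915 reads were counted per RF library, of which 90.5 to 93.3% lay on coding sequences. The median kept gene had 301, 259 and 56 footprints without KCl and 58 and 111 with it. Levels are given as CPM, a gene's CDS footprints scaled to the total on all kept genes with TMM normalization, and the order of values is untreated cultures 1, 2 and 3, then KCl cultures 4 and 5. The genes were read through 63 lists of known function, which named 3337 symbols, of which 2363 had a footprint and 1482 were kept. Fold changes are KCl over untreated from edgeR, an SE is an approximation from the test statistic, and medians of lists are of log2 fold changes. The words "higher", "lower", "rose" and "fell" mark a Benjamini-Hochberg adjusted p under 0.05. Markers of neurons, astrocytes, oligodendrocyte lineage and microglia had footprints in all 5 libraries, although Rbfox3, Gad1, P2ry12, Cspg4 and Mog among them were not kept. None of 5 endothelial and mural markers was kept either, under a limit scaled to coding length, though Flt1 and Pdgfrb had footprints in all 5 libraries. Among these Cldn5 and Pecam1 had at most 8 footprints in any library, Rgs5 at most 30, Flt1 7 to 41 and Pdgfrb 23 to 296. The fibroblast markers Col1a1, Dcn and Lum were kept. The neuronal marker Snap25 was read by 296, 119 and 41 footprints without KCl and by 75 and 156 with it, and the pan-neuronal list took its lowest share of footprints, 0.803%, in untreated culture 2. In bulk cultures, fewer cells of a type and less RNA per cell cannot be told apart.

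Footprints of 2403 of the 6327 genes (38.0%) differed between KCl and untreated cultures. They were higher in KCl for 1233 genes (19.5%) and lower for 1170 (18.5%). Among them 293 rose and 323 fell by at least 2-fold, and 50 rose and 33 fell by at least 4-fold. Both KCl cultures lay above all untreated cultures for 29.1% of genes and below them for 29.6%. With library totals in place of TMM, 935 genes were higher and 1575 lower, and the median log2 fold change of all genes moved from -0.0049 to -0.11. With library totals 37.3% of the calls were higher, beside 51.3% with TMM, and the balance of rises and falls therefore depends on the scaling. Without KCl culture 4, 1587 genes passed, and without KCl culture 5, 1230.

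The 15 largest rises were led by transcription factors. Nr4a2, an orphan nuclear receptor, had 5.14, 3.77 and 10.6 CPM in untreated cultures and 269 and 346 in KCl cultures (log2 fold change 5.91, SE 0.20, adjusted p = 1.9e-24). Maff, a small Maf protein of the basic leucine zipper class, rose from 21.8, 16.2 and 21.1 to 231 and 247 (log2 fold change 3.62, SE 0.16). Nfat5, the osmotic-stress transcription factor, rose from 35.2, 39.1 and 51.5 to 430.4 and 481 (log2 fold change 3.54, SE 0.13). Groups that did not overlap were required for the choice of these genes. Also among the 15 were Wsb1 (3.52), Ptgs2 (3.38), Csrnp1 (3.26), Klf5 (3.24), Mafk (3.22), Fosl2 (3.05), Crem (2.83), Zkscan5 (2.68), Nfil3 (2.66), Rbbp6 (2.64), Sik1 (2.63) and Ppargc1a (2.63), with the log2 fold change of each in parentheses. Ptgs2 is the inducible cyclooxygenase, Crem and Nfil3 are leucine zipper factors, Sik1 is a salt-inducible kinase and Ppargc1a a coactivator of mitochondrial genes. Nr4a2, Nfat5, Ptgs2, Csrnp1, Zkscan5, Rbbp6, Sik1 and Ppargc1a reached the RPKM limit in the KCl libraries only.

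The 15 largest falls held the chemokines Ccl2, Ccl7 and Ccl12 and the cytokine gene Il1b. Rpp38, a protein subunit of RNase P and RNase MRP, fell from 25.2, 34.5 and 29.0 CPM in untreated cultures to 1.27 and 1.33 in KCl cultures (log2 fold change -4.44, SE 0.52, adjusted p = 2e-09). Tgm1, a transglutaminase, fell from 275, 252 and 244 to 33.0 and 55.2 (log2 fold change -2.47, SE 0.16). Ppp1r3c, which targets protein phosphatase 1 to glycogen, fell from 314, 283 and 248 to 33.0 and 40.5 (log2 fold change -2.92, SE 0.17). In KCl cultures Tgm1 rested on 26 and 83 footprints and Ppp1r3c on 26 and 61, but Rpp38 on 1 and 2. The others were Ccl12 (-3.92), Zfp41 (-3.54), Ccl2 (-3.30), Il1b (-3.16), Smim3 (-3.10), Ccl7 (-3.02), Tarbp2 (-2.98), Crygs (-2.58), Smo (-2.56), Ifitm10 (-2.55), Hes5 (-2.45) and Steap4 (-2.44). Rpp38, Ccl12, Zfp41 and Smim3 had at most 3 footprints in the KCl group as a whole. Their ratio of KCl to untreated rate was 0.0445 for Rpp38 (95% interval 0.00911 to 0.132), 0.0593 for Ccl12 (0.00148 to 0.343), 0.0829 for Zfp41 (0.0169 to 0.248) and 0.112 for Smim3 (0.0227 to 0.337), with exact intervals that cover counting error only. The values of Il1b and Hes5 also rest on few KCl footprints. The Tarbp2 value rests on 1 and 5 KCl footprints and was -3.98 without KCl culture 5. Without KCl culture 4 it was -4.51 for Il1b, -2.95 for Zfp41 and -2.51 for Smim3, and without KCl culture 5 no KCl footprint of Ccl12, Zfp41 or Smim3 was left. Rpp38 was at -5.07 with libraries thinned to the shallowest. Ccl2 did not pass the test without KCl culture 4 (log2 fold change -3.24) and without KCl culture 5 (log2 fold change -3.40). Il1b and Hes5 did not pass the test without KCl culture 5 (log2 fold changes -2.07 and -2.89). Ccl2, Ccl7 and Ccl12 are close paralogs next to each other, and reads that map to more than 1 transcript were kept, so their separate values are uncertain.

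**Figure D1:**
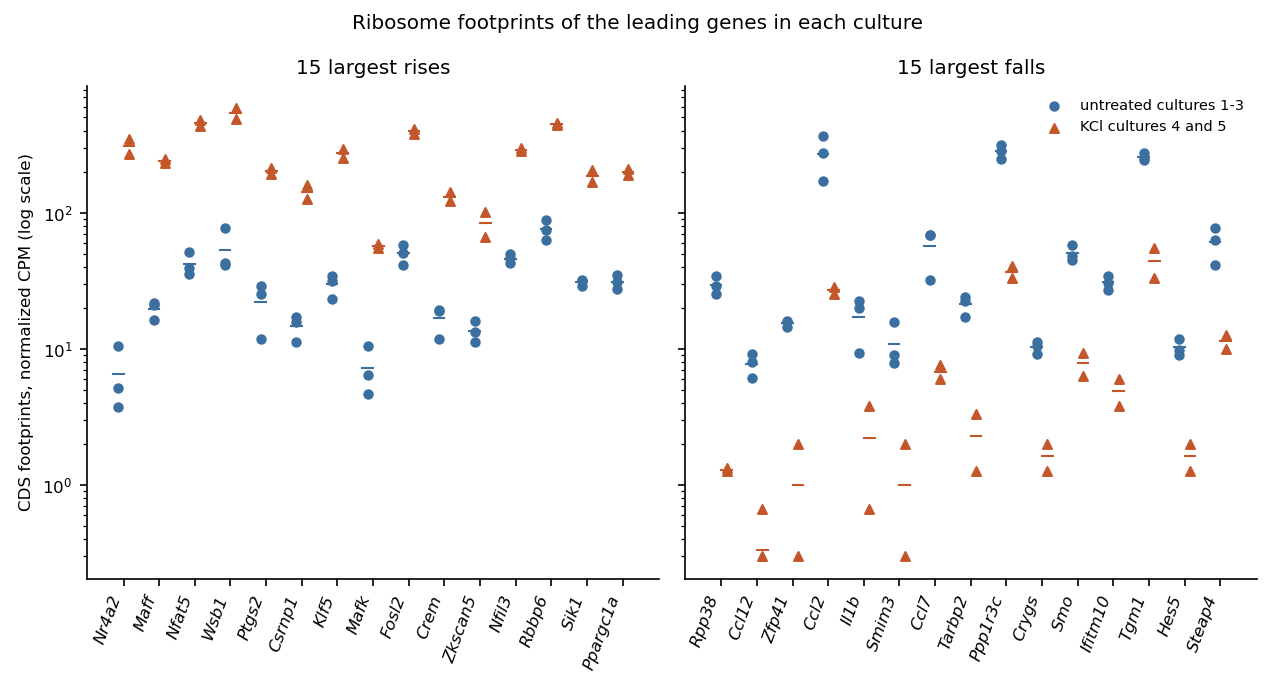
CDS footprints in normalized CPM (log scale) of the 15 largest rises and 15 largest falls, with a point for each of untreated cultures 1 to 3 (circles) and KCl cultures 4 and 5 (triangles) and a line at each group mean; a value of 0 is drawn at 0.3. The groups do not overlap for any of these genes, which their choice required.

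Translation begins at the start codon, and the windows around it are shown for 6 of the genes above, 3 that rose and 3 that fell. Each has 12 bases before the codon and 12 after it, from the GENCODE M21 transcript on GRCm38, with the start codon in capitals and its place given by coordinates.
Nr4a2 start codon (chr2:57112437-57112439, minus strand): tctgctgaagccATGccttgtgttcag
Csrnp1 start codon (chr9:119977204-119977206, minus strand): ctacattccaccATGactgggctactg
Klf5 start codon (chr14:99298995-99298997, plus strand): cccagaccgtccATGcccacgcgggtg
Smo start codon (chr6:29736011-29736013, plus strand): ggctgtttggccATGgccgctggccgc
Ccl2 start codon (chr11:82035662-82035664, plus strand): tcctccaccaccATGcaggtccctgtc
Ppp1r3c start codon (chr19:36736564-36736566, minus strand): cctctcggtccaATGagctgcaccaga
A purine stands 3 bases before the codon in Nr4a2, Csrnp1, Smo and Ccl2 and a pyrimidine in Klf5 and Ppp1r3c. Over the 6216 kept genes with such a window, 87.4% had a purine there. The share was 86.0% of the 1204 genes higher in KCl and 84.8% of the 1153 lower, and these shares were not tested. A G directly after the codon was present in 48.4% of the higher, 48.7% of the lower and 54.4% of the uncalled genes.

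Of 33 kept activity-regulated transcription factors, 25 were higher in KCl and 1 lower, with a median log2 fold change of 1.50 beside -0.0049 over all genes, and 4 were kept through the KCl libraries only. Their part of all footprints on kept genes was 0.206, 0.217 and 0.221% in untreated cultures and 0.554 and 0.574% in KCl cultures. The groups did not overlap. Junb had 190, 228 and 224 in untreated cultures and 585 and 588 in KCl cultures (log2 fold change 1.47, SE 0.10), and its relative Jun, another AP-1 subunit, had 184, 184 and 173 in untreated cultures and 442 and 498 in KCl cultures (log2 fold change 1.38, SE 0.11). The zinc finger factor Klf6 was higher still (log2 fold change 2.17, SE 0.12). Bhlhe40, a basic helix-loop-helix repressor of the clock, was the member that fell, from 169, 215 and 177 to 96.5 and 70.4 (log2 fold change -1.22, SE 0.16). RNAseq of the same transcripts gave 25 higher and 1 lower, with a median of 1.40. Egr1, Npas4 and Nr4a1, classical genes of this class, are not analysed here.

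The cAMP response element, read by CREB, is the classical calcium-responsive site. The letters TGACGTCA were searched on both strands of RefSeq promoter windows (GRCm38.p6, 250 bases before to 50 after each start). They occurred in 1.79% of all windows, in 188 of 4998 kept genes with a window, in 51 of 967 genes that rose and in 22 of 919 that fell. Within the transcription factor list 1 of 26 held it, and it is shown with 30 bases and the match in capitals.
Maff promoter (chr15:79347480-79347509, plus strand): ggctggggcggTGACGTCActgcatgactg

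A list of secreted and synaptic effectors of activity also holds genes of other function, such as Arl5b, Coq10b and Lmo4. Of its 30 kept members 22 were higher and 1 lower (median 1.12, 3 kept through the KCl libraries only). Arl5b, a small GTPase of the Arf family, rose from 14.2, 20 and 33.0 to 104 and 109.6 CPM (log2 fold change 2.48, SE 0.22). Coq10b, a coenzyme Q binding protein, rose from 19.1, 13.3 and 21.1 to 102 and 80.4 (log2 fold change 2.39, SE 0.22). The matricellular protein gene Ccn1 rose from a high level, 591, 595 and 605, to 1451 and 1493 (log2 fold change 1.30, SE 0.08). The LIM-domain regulator Lmo4 fell (log2 fold change -0.82, SE 0.13). RNAseq gave 23 higher and 2 lower members. The effector list had 23 higher and 3 lower members without untreated culture 2.

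Inhibitors of the same signalling were also measured. Among 9 kept MAPK phosphatases, Sprouty and Spred proteins, 6 were higher and 1 lower (median 0.65, 3 kept through the KCl libraries only). Dusp1, which dephosphorylates MAP kinases, had 25.7, 21.7 and 30.4 in untreated cultures and 116 and 151 in KCl cultures (log2 fold change 2.45, SE 0.18). Dusp10 and Dusp16, which act on JNK and p38, rose as well (2.19 and 1.96). Spred1, an inhibitor of Ras signalling, fell from 73.6, 93.3 and 83.2 to 35.6 and 38.5 (log2 fold change -1.15, SE 0.19). Among 13 RGS proteins, RGK GTPases and SIK kinases with their CRTC partners, 5 were higher and 3 lower (median 0.14, 2 kept through the KCl libraries only). The calcium channel inhibitor Gem rose from 95.1, 111 and 124 to 314 and 349.5 (log2 fold change 1.64, SE 0.12), and Rgs2, which shortens G protein signals, rose with it (1.40), whereas the CREB coactivator Crtc1 fell (-0.84). The RGS and SIK list had 5 higher and 1 lower member without KCl culture 5.

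Of 13 kept clock genes 6 were higher and 2 lower (median 0.25, 1 kept through the KCl libraries only). Rora, Rorb and Arntl, which form or drive the positive limb of the clock, rose by 1.76, 1.16 and 1.09 on the log2 scale. Arntl had 43.8, 49.0 and 48.8 in untreated cultures and 95.2 and 102 in KCl cultures. The repressor Bhlhe41 fell from 60.6, 62.0 and 64.7 to 24.1 and 31.2 (log2 fold change -1.12, SE 0.21), in the direction of its relative Bhlhe40. Of 22 mRNA decay and anti-proliferative factors 9 were higher and 1 lower (median 0.35, 1 kept through the KCl libraries only). Zfp36, which sends AU-rich mRNAs to decay, rose from 37.2, 42.0 and 51.5 to 157 and 124 (log2 fold change 1.74, SE 0.17), and Tob2, an anti-proliferative adaptor of deadenylation, from 39.1, 45.2 and 37.0 to 168 and 185 (log2 fold change 2.10, SE 0.15). Elavl1, which stabilizes such mRNAs, rose less (0.94).

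The osmotic genes split. Of 11 kept members 5 were higher and 3 lower (median -0.07, 1 kept through the KCl libraries only). Beside Nfat5, the amino acid transporter Slc38a2 had 293, 328 and 438 in untreated cultures and 1832 and 2011 in KCl cultures (log2 fold change 2.49, SE 0.12, adjusted p = 3.9e-11), and it was among the genes with the largest gain of footprints. The taurine transporter Slc6a6 rose from 154, 145 and 158 to 282 and 312 (log2 fold change 0.98, SE 0.12). Lrrc8b and Lrrc8d, subunits of the volume-regulated anion channel, fell by 1.08 and 1.50 on the log2 scale, with Lrrc8d at 74.6, 85.5 and 67.3 in untreated cultures and 31.7 and 24.6 in KCl cultures. Wnk1, the kinase that controls cation-chloride cotransporters, fell from 395, 457 and 399 to 295 and 282 (log2 fold change -0.54, SE 0.11), while its RNAseq log2 fold change was 0.05. None of the 15 kept Na,K-ATPase subunits and cotransporters passed the test, with edgeR or DESeq2 (median 0.15), while 2 had a higher and 1 a lower value at an unadjusted p under 0.05. With a culture left out, 1 was higher without untreated culture 1, 1 higher and 1 lower without untreated culture 2 and 1 higher without untreated culture 3, and 2 were lower with library totals. Atp1b1 had 1443, 1415 and 1397 in untreated cultures and 1586 and 1600.1 in KCl cultures (log2 fold change 0.17, SE 0.08).

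Among 22 heat-shock genes 15 were higher and 1 lower (median 0.41). Most are cytosolic chaperones, but the list also holds a heat-shock transcription factor and Hsp70 proteins of mitochondria and the ER. The list took 0.775, 0.775 and 0.782% of the footprints in untreated cultures and 0.98 and 0.955% in KCl cultures. Dnajb4, an Hsp40 cochaperone, had 148, 167 and 157 in untreated cultures and 678 and 682 in KCl cultures (log2 fold change 2.11, SE 0.10). Dnajb1 rose from 90.2, 76.0 and 76.6 to 199 and 178 (log2 fold change 1.19, SE 0.14), and Bag3 and Hspb8, which together hand misfolded proteins to autophagy, rose by 1.06 and 0.76. The subunit Cct5 of the TRiC chaperonin rose less, from 677, 648 and 643 to 884 and 880.5 (log2 fold change 0.43, SE 0.09). RNAseq had 8 higher and 0 lower. The inducible Hspa1a and the constitutive Hspa8 were listed at 0 CDS footprints in all libraries and are not compared. The heat-shock element, GAANNTTCNNGAA on either strand, occurred in 0.603% of all promoter windows, in 22 of 4998 kept genes and in 1 of 19 of this list. That match, on the other strand, is shown in capitals.
Hsph1 promoter (chr5:149636279-149636308, minus strand): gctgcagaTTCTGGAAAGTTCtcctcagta

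Of 18 genes of the integrated stress response 8 were higher and 1 lower (median 0.30, 3 kept through the KCl libraries only). Atf4, its central transcription factor, rose from 24.5, 20.6 and 17.2 to 124 and 116 (log2 fold change 2.45, SE 0.19), and Sesn2, an inhibitor of mTORC1, from 26.4, 20.6 and 23.8 to 95.2 and 101 (log2 fold change 2.06, SE 0.19). Ddit3, which encodes CHOP, had 1.71, 3.77 and 6.60 in untreated cultures and 22.9 and 15.9 in KCl cultures (log2 fold change 2.57, SE 0.44), with an RNAseq log2 fold change of -0.09 that did not pass. Of 19 ER chaperone and unfolded protein genes 5 were higher and 2 lower (median 0.10), led by the sensor Atf6 (0.75) and Derl1 (0.58), which takes part in ER-associated degradation. Of 24 NRF2 antioxidant genes 7 were higher and 4 lower (median 0.11). Sqstm1, the autophagy receptor p62, had 1024, 974 and 1147 in untreated cultures and 2530.5 and 2750.3 in KCl cultures (log2 fold change 1.34, SE 0.08), and Hmox1, heme oxygenase, rose by 0.94, whereas sulfiredoxin Srxn1 fell from 109, 96.0 and 97.7 to 35.6 and 40.5 (log2 fold change -1.39, SE 0.18). The ER chaperone list had 3 higher and 2 lower members without untreated culture 1, 2 and 2 without KCl culture 4, 2 and 0 without KCl culture 5 and 2 and 3 with library totals. The NRF2 list had 5 higher and 2 lower members without KCl culture 4 and 3 and 1 without KCl culture 5.

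Of 10 ferritin, iron and polyamine genes 3 were higher and 1 lower (median -0.02). The ferritin heavy chain gene Fth1 had 58.2, 66.1 and 44.9 in untreated cultures and 168 and 171 in KCl cultures (log2 fold change 1.52, SE 0.15), and Azin1, which inhibits the antizyme of polyamine synthesis, had 107, 95.4 and 119 in untreated cultures and 326 and 294 in KCl cultures (log2 fold change 1.56, SE 0.12). Both KCl cultures lay above all untreated cultures for both genes, as they did for 29.1% of all kept genes. The RNAseq log2 fold changes of Fth1 and Azin1 were -0.06 and 0.06 and did not pass. Of 17 amino acid transporters 5 were higher and 3 lower (median 0.05). The heavy chain Slc3a2 rose (log2 fold change 0.64, SE 0.08), while Slc43a2 and Slc1a5 fell by 0.86 and 1.07. The amino acid transporter list had 3 higher and 4 lower members without KCl culture 4, 2 and 2 without KCl culture 5 and 3 and 4 with library totals.

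RNA processing genes were among the lists with more rises than falls. Of 16 SR proteins and CLK kinases 9 were higher and none lower by edgeR, DESeq2 or at an unadjusted p under 0.05, with a median log2 fold change of 0.78. Without untreated culture 1, 9 were higher and 1 lower. Their part of the footprints was 0.304, 0.34 and 0.314% in untreated cultures and 0.549 and 0.559% in KCl cultures. Clk4, a kinase that phosphorylates SR proteins, rose from 33.3, 33.9 and 35.6 to 133 and 122 (log2 fold change 1.90, SE 0.17), and its relative Clk1 from 61.1, 72.8 and 67.3 to 166 and 229 (log2 fold change 1.59, SE 0.15). The splicing coactivator Srrm2 rose from 959.6, 1151 and 972 to 2057 and 2189 (log2 fold change 1.04, SE 0.09), and Tra2a by 1.23. Of 22 hnRNPs 9 were higher and 3 lower (median 0.28). The polypyrimidine tract binding protein Ptbp1 rose from 446, 435 and 407 to 994 and 862 (log2 fold change 1.10, SE 0.09) and Sfpq, a paraspeckle protein, by 0.90, whereas Hnrnpul1 fell (log2 fold change -0.74, SE 0.15). Of 21 core spliceosome genes 8 were higher and 1 lower (median 0.17, 1 kept through the KCl libraries only), led by Prpf38b (1.58) and Sf1 (0.96), which recognizes the branch point, with Prpf31 of the tri-snRNP lower (-1.03). The hnRNP list had 6 higher and 1 lower member without KCl culture 5.

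Of 25 neuronal RNA-binding proteins that regulate translation 14 were higher and none lower by edgeR or DESeq2 (1 at an unadjusted p under 0.05), with a median of 0.41 in footprints and 0.17 in RNAseq, where 10 were higher and 1 lower. With library totals 11 were higher and 3 lower, and without untreated culture 3, 12 were higher and 1 lower. Cpeb4, which binds cytoplasmic polyadenylation elements, rose from 58.9, 55.7 and 56.8 to 139.7 and 160.1 (log2 fold change 1.40, SE 0.15), and the splicing and localization factor Mbnl2 from 98.1, 110.5 and 95.1 to 223 and 243 (log2 fold change 1.19, SE 0.13). Fxr1, a relative of the fragile X protein, had 251, 271 and 272 in untreated cultures and 570.1 and 531 in KCl cultures (log2 fold change 1.06, SE 0.10) with an RNAseq log2 fold change of 0.16. The RNA binding protein list had 8 higher and 0 lower members without KCl culture 5.

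The machinery of transcription was called in both directions, as were all kept genes, of which 19.5% were higher and 18.5% lower. Of 47 RNA polymerase II and Mediator genes 7 were higher and 12 lower (median -0.11, 1 kept through the KCl libraries only). Gtf2h1, a TFIIH subunit, was the largest rise, from 43.8, 58.3 and 23.8 to 105 and 121 (log2 fold change 1.30, SE 0.20), and the small TFIIA subunit gene Gtf2a2 the largest fall (log2 fold change -0.90, SE 0.23). Of 20 non-mitotic cyclins and their kinases 7 were higher and 3 lower (median 0.26, 1 kept through the KCl libraries only). Ccnl1, a cyclin tied to splicing, rose from 22.5, 36.8 and 44.9 to 142 and 145 (log2 fold change 2.18, SE 0.19), and Ccnk and Ccnt1, partners of the kinases that phosphorylate polymerase II, rose by 1.61 and 0.99. Ccni fell from 63.8, 75.4 and 55.5 to 12.7 and 15.3 (log2 fold change -2.21, SE 0.25), with an RNAseq log2 fold change of 0.06. Of 24 nuclear pore and transport genes 8 were higher and 6 lower (median -0.03), with Nup98 (1.25) and Nup153 (1.07) among the rises and Nup188 (-1.21) and Xpo4 (-1.16) among the falls. Gtf2a2 did not pass the test without KCl culture 4 (log2 fold change -0.60). Its value was -1.55 without KCl culture 5. The polymerase and Mediator list had 4 higher and 12 lower members without untreated culture 1, 4 and 5 without KCl culture 4 and 2 and 1 without KCl culture 5. The cyclin list had 5 higher and 1 lower member without KCl culture 4 and 6 and 1 without KCl culture 5. The nuclear pore list had 6 higher and 3 lower members without KCl culture 5 and 7 and 8 with library totals.

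Of 40 histone methylation and acetylation enzymes 13 were higher and 8 lower (median -0.04, 1 kept through the KCl libraries only). The demethylases Kdm3a, Kdm5b and Kdm5a, which remove methyl groups from lysines of histone H3, rose by 1.48, 1.17 and 1.05, and Kdm3a had 203, 222 and 176 in untreated cultures and 583 and 556 in KCl cultures. The H3 methyltransferase Nsd1 fell from 227, 253 and 226 to 108 and 143 (log2 fold change -0.88, SE 0.13), and the acetyltransferases Kat2a and Kat5 fell by 0.91 and 0.93. Of 47 numbered zinc finger genes 10 were higher and 11 lower (median -0.12, 2 kept through the KCl libraries only), close to the shares of all genes. Zfp207, a spindle and splicing protein, rose from 439.9, 438 and 374 to 1183 and 1069.8 (log2 fold change 1.41, SE 0.09), while Zfp106 fell from 174, 213 and 185 to 73.6 and 76.4 (log2 fold change -1.35, SE 0.15) with an RNAseq log2 fold change of -0.10. The histone enzyme list had 8 higher and 7 lower members without KCl culture 4, 8 and 4 without KCl culture 5 and 11 and 12 with library totals. The zinc finger list had 12 higher and 11 lower members without untreated culture 2 and 9 and 8 without KCl culture 5.

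The machinery of translation itself showed both directions, beside 19.5% higher and 18.5% lower over all kept genes. Of 31 initiation factors and their kinases 10 were higher and 3 lower (median 0.11, 1 kept through the KCl libraries only). The eIF2 kinase gene Eif2ak3 rose from 44.3, 41.5 and 29.0 to 83.8 and 96.4 (log2 fold change 1.16, SE 0.18) and the helicase Eif4a2 from 476, 494 and 455 to 747 and 693 (log2 fold change 0.59, SE 0.09). The cap-binding inhibitor Eif4ebp2 fell from 38.4, 38.0 and 48.8 to 16.5 and 20.6 (log2 fold change -1.07, SE 0.26), and Eif2b3, a subunit of the eIF2 exchange factor, by 1.36. Of 10 elongation and release factors 4 were higher and 2 lower (median 0.19). The release factor Etf1 rose from 314, 381 and 316 to 900.2 and 745 (log2 fold change 1.27, SE 0.10), and the kinase Eef2k, which slows elongation, fell from 70.7, 76.5 and 85.8 to 25.4 and 31.2 (log2 fold change -1.39, SE 0.21). The initiation factor list had 6 higher and 3 lower members without KCl culture 4. The elongation and release factor list had 2 higher and 1 lower member without KCl culture 4, 1 and 1 without KCl culture 5 and 2 and 4 with library totals.

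Genes that build ribosomes and charge tRNAs were called lower more often than higher. Of 47 ribosome biogenesis genes 5 were higher and 18 lower (median -0.18), and their part of the footprints was 0.493, 0.49 and 0.499% in untreated cultures and 0.454 and 0.431% in KCl cultures. Beside Rpp38, the polymerase I subunit gene Polr1b fell from 66.8, 58.8 and 96.4 to 27.9 and 22.6 (log2 fold change -1.49, SE 0.24), whereas Polr1c, a subunit shared by polymerases I and III, rose from 91.7, 78.0 and 64.7 to 231 and 198 (log2 fold change 1.39, SE 0.14). Of 17 cytosolic aminoacyl-tRNA synthetases 2 were higher and 6 lower (median -0.08), with Farsb, a subunit of the phenylalanine enzyme, at 172, 196 and 153 in untreated cultures and 103 and 100.3 in KCl cultures (log2 fold change -0.80, SE 0.14). Of 3 mitochondrial synthetases 1 was higher and 2 lower (median -0.56), with Rars2 at -1.37. Of 41 mitochondrial ribosomal proteins 3 were higher and 8 lower (median -0.11), and RNAseq had 0 higher and 13 lower. Of the cytosolic ribosomal proteins, 4 of 86 listed were kept, from an alignment without degenerate sequences, and of these Rps3 rose (log2 fold change 0.57, SE 0.09) and Rps9 (log2 fold change 0.30, SE 0.10). Rps9 did not pass the test with library totals (log2 fold change 0.19), with thinned libraries (log2 fold change 0.28), without KCl culture 4 (log2 fold change 0.27) and without KCl culture 5 (log2 fold change 0.33). The ribosome biogenesis list had 5 higher and 5 lower members without KCl culture 5. The cytosolic synthetase list had 0 higher and 3 lower members without KCl culture 4. The mitochondrial ribosome list had 1 higher and 5 lower members without untreated culture 1, 1 and 6 without untreated culture 3, 1 and 1 without KCl culture 4 and 1 and 2 without KCl culture 5.

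**Figure D2:**
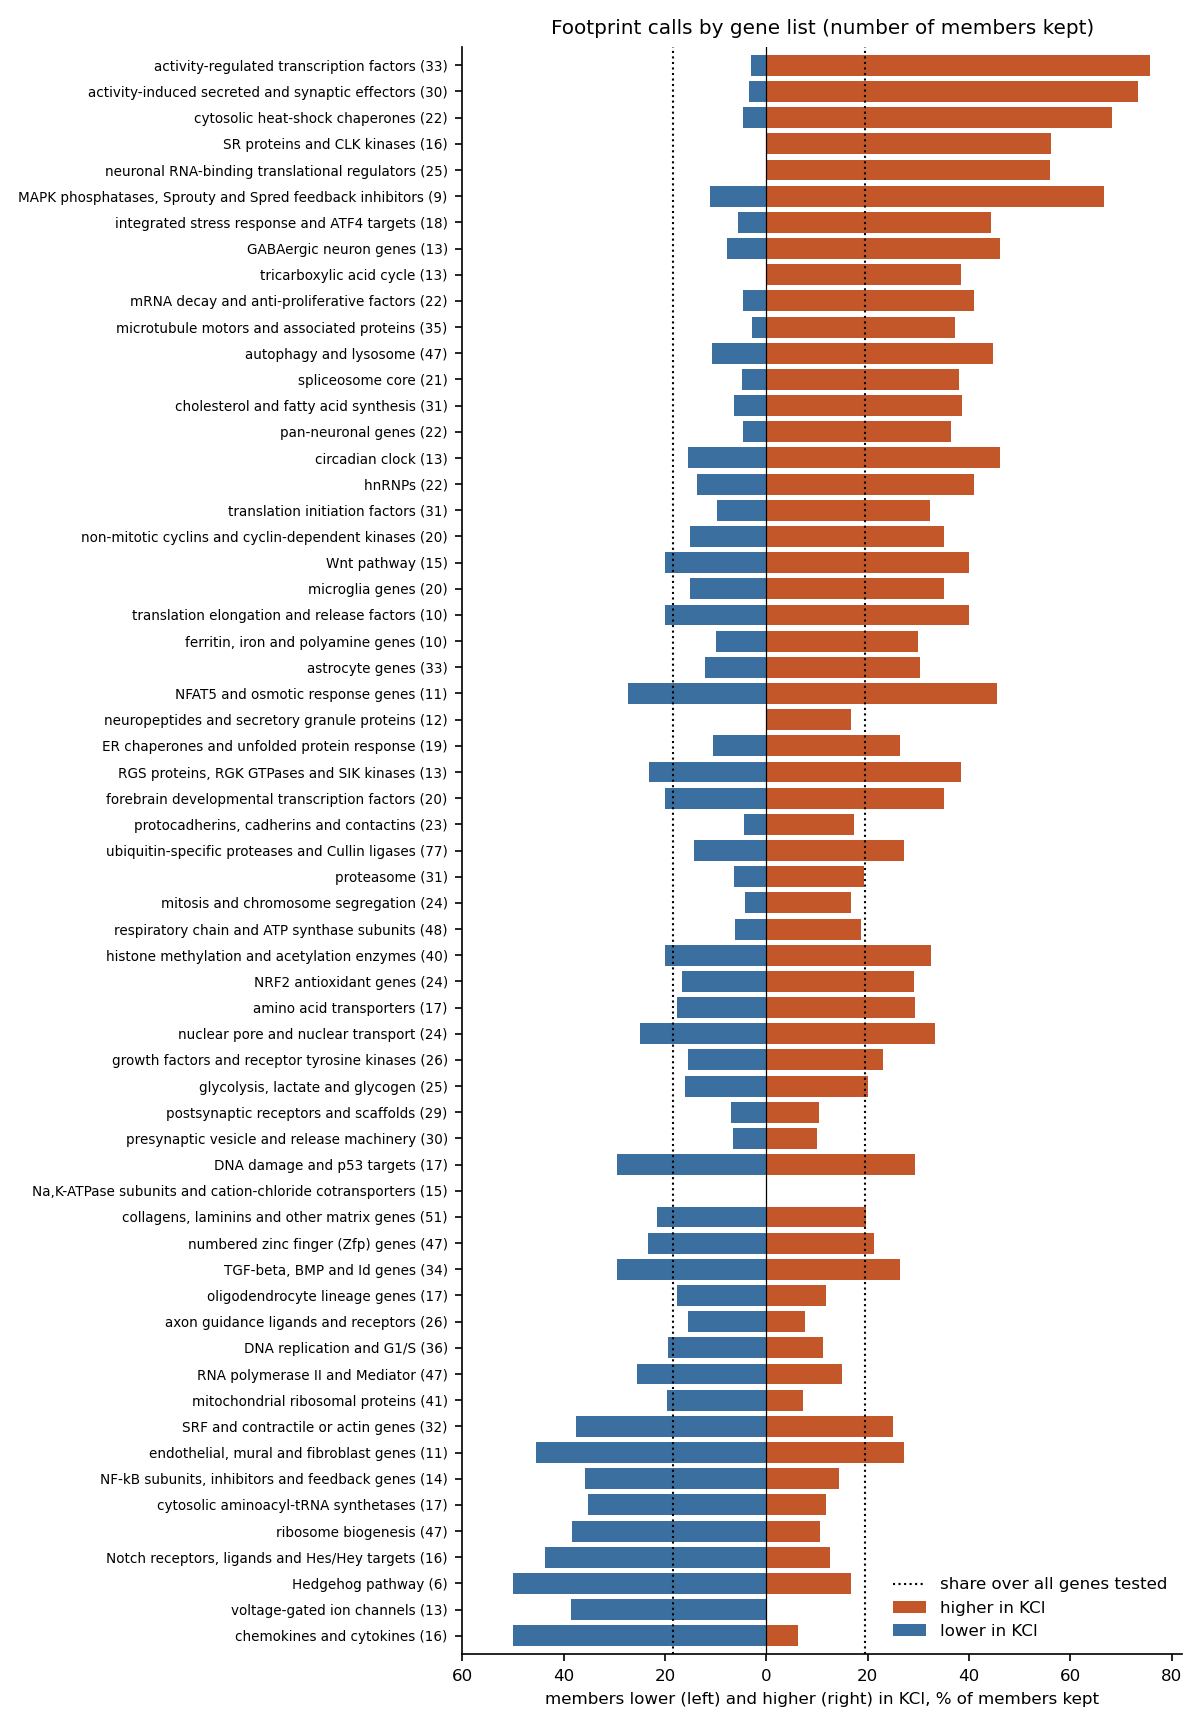
Percent of the kept members of each gene list that were lower (blue, left) or higher (orange, right) in KCl by edgeR, for lists with at least 6 members kept, whose number stands in parentheses. Dotted lines mark the shares over all genes tested, 18.5% lower and 19.5% higher; 25 of 33 activity-regulated transcription factors were higher and 8 of 16 chemokines and cytokines lower.

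Of 31 cholesterol and fatty acid synthesis genes 12 were higher and 2 lower (median 0.26), and their part of the footprints was 0.908, 1.01 and 0.938% in untreated cultures and 1.35 and 1.31% in KCl cultures. Insig1, which retains the sterol sensor in the ER, had 59.2, 52.8 and 62.1 in untreated cultures and 245 and 245 in KCl cultures (log2 fold change 2.10, SE 0.14). The sterol carrier Stard4 rose by 1.58. Hmgcs1, an early enzyme of cholesterol synthesis, gained most in footprints, from 1889, 2301 and 1998 to 3469 and 3310.5 (log2 fold change 0.71, SE 0.08), with an RNAseq log2 fold change of 0.29 that did not pass. The sterol regulatory element TCACNCCAC, on either strand, occurred in 1.24% of all promoter windows, in 78 of 4998 kept genes and in 1 of 23 of this list with a window. The cholesterol list had 10 higher and 0 lower members without KCl culture 4. The match of Hmgcs1 is shown in capitals.
Hmgcs1 promoter (chr13:119690204-119690233, plus strand): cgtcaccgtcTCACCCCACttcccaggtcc

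Of 47 autophagy and lysosome genes 21 were higher and 5 lower (median 0.27, 2 kept through the KCl libraries only), and they took 2.28, 2.33 and 2.203% of footprints in untreated cultures and 2.64 and 2.55% in KCl cultures. Atp6v1b2, a subunit of the proton pump that acidifies lysosomes, rose from 390.3, 452 and 436 to 1013 and 904 (log2 fold change 1.17, SE 0.09), Gabarapl1, an Atg8 protein of the autophagosome, from 167, 145 and 161 to 320 and 339 (log2 fold change 1.07, SE 0.12), and the protease Ctsl by 0.73. Ulk2, a kinase that starts autophagy, fell from 81.2, 83.5 and 51.5 to 38.1 and 24.6 (log2 fold change -1.36, SE 0.22). Of 77 ubiquitin-specific proteases and Cullin ligase genes 21 were higher and 11 lower (median -0.06, 2 kept through the KCl libraries only). The F-box genes Fbxo32 and Fbxo30 rose by 1.83 and 1.77, and Klhl22, a Cullin 3 adaptor, fell by 1.02. Of 31 proteasome genes 6 were higher and 2 lower (median 0.07), so that the share higher was that of all genes. The autophagy and lysosome list had 9 higher and 3 lower members without KCl culture 4 and 15 and 1 without KCl culture 5. The ubiquitin ligase and protease list had 18 higher and 7 lower members without KCl culture 4 and 17 and 5 without KCl culture 5. The proteasome list had 2 higher and 0 lower members without KCl culture 5 and 3 and 4 with library totals.

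Of 25 glycolysis, lactate and glycogen genes 5 were higher and 4 lower (median 0.13), close to the shares of all genes, with Tpi1 at 358, 254 and 248 in untreated cultures and 459.6 and 463 in KCl cultures (log2 fold change 0.66, SE 0.13) and the glycogen gene Ppp1r3c as the largest fall. Of 48 respiratory chain and ATP synthase subunits 9 were higher and 3 lower (median 0.14), so that the share higher was near that of all genes. The ATP synthase subunit gene Atp5b rose from 586, 497 and 628 to 949.7 and 1013 (log2 fold change 0.80, SE 0.09), and Ndufv2 of complex I fell from 286, 299 and 277 to 204 and 207 (log2 fold change -0.49, SE 0.12). Of 13 genes of the tricarboxylic acid cycle 5 were higher and none lower by edgeR or DESeq2 (1 at an unadjusted p under 0.05, median 0.18), with Idh3b rising (log2 fold change 0.41, SE 0.11), while RNAseq had 0 higher and 3 lower. The respiratory chain list had 4 higher and 1 lower member without KCl culture 4 and 3 and 2 without KCl culture 5. The tricarboxylic acid cycle list had 3 higher and 0 lower members without untreated culture 1, 4 and 2 without untreated culture 2, 2 and 0 without KCl culture 4, 2 and 0 without KCl culture 5 and 1 and 3 with library totals. The glycolysis list had 3 higher and 3 lower members without KCl culture 4, 3 and 1 without KCl culture 5 and 3 and 4 with library totals.

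Most called genes of inflammation were lower. Of 16 chemokines and cytokines 1 was higher and 8 lower (median -0.76), and their part of the footprints was 0.179, 0.241 and 0.22% in untreated cultures and 0.151 and 0.135% in KCl cultures. Ccl2, the monocyte chemoattractant, had 172, 367 and 275 in untreated cultures and 25.4 and 28.6 in KCl cultures (log2 fold change -3.30, SE 0.59, adjusted p = 0.019), and Il1b had 9.29, 22.3 and 19.8 in untreated cultures and 3.81 and 0.664 in KCl cultures (log2 fold change -3.16, SE 0.66). Untreated culture 1 held the lowest untreated value of both, and the Il1b value rests on few KCl footprints. Microglia, a source of chemokines in brain, had marker genes that together took 0.237, 0.233 and 0.25% of footprints in untreated cultures and 0.262 and 0.26% in KCl cultures, and their part in this result was not tested. Ccl3 was the member that rose, from 44.3, 50.7 and 34.3 to 76.2 and 65.8 (log2 fold change 0.63, SE 0.19). Of 14 NF-kB subunits, inhibitors and feedback genes 2 were higher and 5 lower (median -0.24). The adhesion receptor Icam1 fell from 175, 227 and 205 to 110.5 and 104 (log2 fold change -0.92, SE 0.14), and the inhibitors Nfkbia and Tnip1 fell by 0.59 and 0.96. Nfkbiz, of the IkappaB family, rose from 41.3, 46.7 and 51.5 to 107 and 122 (log2 fold change 1.35, SE 0.17). Ccl2 did not pass the test without KCl culture 4 (log2 fold change -3.24) and without KCl culture 5 (log2 fold change -3.40). Il1b did not pass the test without KCl culture 5 (log2 fold change -2.07). Ccl3 did not pass the test without KCl culture 4 (log2 fold change 0.54). Cxcl1 did not pass the test with thinned libraries (log2 fold change -2.28), without untreated culture 3 (log2 fold change -1.41), without KCl culture 4 (log2 fold change -1.70) and without KCl culture 5 (log2 fold change -1.76). The Il1b value was -4.51 without KCl culture 4. The chemokine and cytokine list had 0 higher and 5 lower members without KCl culture 4 and 1 and 3 without KCl culture 5. The NF kappaB list had 2 higher and 3 lower members without KCl culture 5. The kappaB letters GGGANTTTCC, on either strand, occurred in 0.411% of all promoter windows, in 26 of 4998 kept genes, in 2 of 13 chemokines and cytokines and in 2 of 11 of the NF-kB list. Matches are shown in capitals for Nfkbia and for Cxcl1, a neutrophil chemokine chosen for the match.
Cxcl1 promoter (chr5:90891164-90891193, plus strand): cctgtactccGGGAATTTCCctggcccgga
Nfkbia promoter (chr12:55492657-55492686, minus strand): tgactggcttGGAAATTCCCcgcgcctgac

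The Notch pathway, in which a cleaved receptor joins RBPJ to drive Hes and Hey genes, gave more falls than rises. Of 16 kept members 2 were higher and 7 lower (median -0.38). Hes5 had 9.05, 9.86 and 11.9 in untreated cultures and 1.27 and 1.99 in KCl cultures (log2 fold change -2.45, SE 0.62), and Lfng, a glycosyltransferase that modifies the receptor, had 65.5, 61.5 and 64.7 in untreated cultures and 30.5 and 14.6 in KCl cultures (log2 fold change -1.63, SE 0.24). The Hes5 value rests on few KCl footprints. The ubiquitin ligase gene Dtx4 fell by 1.17. Against this, Hes1 rose from 24.2, 19.4 and 17.2 to 59.7 and 65.1 (log2 fold change 1.56, SE 0.22), and Numb, an inhibitor of the receptor, from 49.9, 49.0 and 66.0 to 122 and 127 (log2 fold change 1.25, SE 0.16). Hes5 did not pass the test without KCl culture 5 (log2 fold change -2.89). The Notch list had 2 higher and 4 lower members without KCl culture 5. The RBPJ letters GTGGGAA, on either strand, occurred in 6.38% of all promoter windows, in 365 of 4998 kept genes and in 3 of 11 of the list with a window, among them Hes5 and Lfng, shown with the match in capitals.
Hes5 promoter (chr4:154960829-154960858, plus strand): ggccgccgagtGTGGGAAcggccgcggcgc
Lfng promoter (chr5:140607221-140607250, plus strand): ccgtatcccacGTGGGAAggagagatctcc

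Of 6 Hedgehog pathway genes 1 was higher and 3 lower (median -0.42). Smo, the receptor-like protein that transmits the signal, had 48.2, 45.2 and 58.1 in untreated cultures and 6.35 and 9.30 in KCl cultures (log2 fold change -2.56, SE 0.31), with an RNAseq log2 fold change of -0.31 that did not pass. The coreceptor Cdon fell from 106, 101 and 104 to 64.8 and 56.5 (log2 fold change -0.79, SE 0.17). Of 15 Wnt pathway genes 6 were higher and 3 lower (median 0.27, 1 kept through the KCl libraries only), with the secreted Dkk3 higher (log2 fold change 0.45, SE 0.10) and the receptor Fzd6 and the ligand Wnt7a lower (-1.27 and -1.48). Of 34 TGF-beta, BMP and Id genes 9 were higher and 10 lower (median -0.10, 1 kept through the KCl libraries only). The inhibitors Skil, Smad7 and Nog rose, Skil from 79.0, 89.0 and 102 to 383 and 393 (log2 fold change 2.16, SE 0.12) and the others by 1.47 and 1.04. The ligand Tgfb3 fell from 45.0, 57.4 and 54.1 to 16.5 and 8.64 (log2 fold change -2.16, SE 0.29), the receptor Tgfbr2 by 1.08, and the target Id3 from 874, 732 and 819.9 to 515 and 524 (log2 fold change -0.64, SE 0.10). Of 26 growth factor and receptor kinase genes 6 were higher and 4 lower (median 0.04), near the shares of all genes. Fgf2 and its receptor Fgfr1 fell by 1.74 and 0.71, while Fgfr2 and the insulin receptor substrate Irs1 rose by 0.85 and 1.23. Cdon did not pass the test without KCl culture 5 (log2 fold change -0.67). The Hedgehog list had 1 higher and 1 lower member without KCl culture 5. The Wnt list had 2 higher and 3 lower members without untreated culture 3, 2 and 3 without KCl culture 4, 3 and 2 without KCl culture 5, 2 and 3 with DESeq2 and 2 and 3 with library totals. The TGF beta list had 5 higher and 8 lower members without KCl culture 5. The growth factor list had 5 higher and 6 lower members without untreated culture 2, 3 and 2 without KCl culture 5 and 4 and 7 with library totals. The TGF beta median was 0.013 without untreated culture 2 and 0.026 without KCl culture 4.

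Of 32 SRF, contractile and actin genes 8 were higher and 12 lower (median -0.13). Flnc, a large actin crosslinker, had 1344, 970 and 1092 in untreated cultures and 481 and 498 in KCl cultures (log2 fold change -1.22, SE 0.11), and calponin Cnn1 had 60.4, 56.2 and 35.6 in untreated cultures and 5.08 and 19.9 in KCl cultures (log2 fold change -1.90, SE 0.31). The focal adhesion coactivator Tgfb1i1 fell by 2.14. Vinculin Vcl rose from 654, 644 and 590.1 to 990.4 and 909.7 (log2 fold change 0.58, SE 0.09) and lamin Lmna by 0.61, and Srf itself had 23.7, 21.5 and 35.6 in untreated cultures and 47.0 and 38.5 in KCl cultures (log2 fold change 0.76, SE 0.25), with 2.33 in RNAseq. Without KCl culture 5 the log2 fold change was -3.39 for Cnn1 and -2.84 for Tgfb1i1. Srf did not pass the test with DESeq2 (log2 fold change 0.74), without KCl culture 4 (log2 fold change 0.63) and without KCl culture 5 (log2 fold change 0.92). Cnn2 did not pass the test with DESeq2 (log2 fold change -0.65), with thinned libraries (log2 fold change -0.39) and without KCl culture 5 (log2 fold change -0.62). Myl9 did not pass the test with DESeq2 (log2 fold change -0.72), with filterByExpr (log2 fold change -0.64), with no filter (log2 fold change -0.65), without untreated culture 3 (log2 fold change -0.65), without KCl culture 4 (log2 fold change -0.64) and without KCl culture 5 (log2 fold change -0.80). The SRF and actin list had 4 higher and 10 lower members without KCl culture 4 and 4 and 7 without KCl culture 5. A CArG box, the site SRF reads, occurred on either strand in 1.63% of all promoter windows and in 85 of 4998 kept genes. In this list, which was drawn up around SRF, 7 of 30 had a match, with 4 of 8 of those that rose and 2 of 10 of those that fell. The match is shown in capitals for Srf and Vcl, which rose, and for Cnn2 and Myl9, which fell and were chosen for the match.
Srf promoter (chr17:46556225-46556254, minus strand): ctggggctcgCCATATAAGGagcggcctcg
Vcl promoter (chr14:20929161-20929190, plus strand): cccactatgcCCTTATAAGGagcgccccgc
Cnn2 promoter (chr10:79988534-79988563, plus strand): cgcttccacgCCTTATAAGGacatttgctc
Myl9 promoter (chr2:156775293-156775322, plus strand): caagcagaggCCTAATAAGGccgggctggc

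Of 51 matrix genes 10 were higher and 11 lower (median -0.0017), close to the shares of all genes. Thbs1, thrombospondin, which astrocytes secrete to promote synapses, had 496, 489.6 and 483 in untreated cultures and 2372 and 2467 in KCl cultures (log2 fold change 2.303, SE 0.08, adjusted p = 2e-25). The protease Adamts1 rose by 1.26. Collagen Col1a1 fell from 1691, 1103 and 1613 to 451 and 655 (log2 fold change -1.39, SE 0.30) and Col3a1 from 826, 535 and 718 to 375 and 416 (log2 fold change -0.80, SE 0.16), while their RNAseq log2 fold changes were -0.32 and 0.35 and did not pass. Both collagens were lowest among untreated cultures in culture 2. The 11 kept endothelial, mural and fibroblast genes, which include collagens, took 0.58, 0.492 and 0.542% of footprints in untreated cultures and 0.393 and 0.414% in KCl cultures, and their part in this result was not tested. The inhibitor Timp1 fell from 71.4, 78.3 and 75.3 to 33.0 and 27.2 (log2 fold change -1.35, SE 0.20). The matrix list had 10 higher and 9 lower members without untreated culture 1, 8 and 6 without KCl culture 4 and 4 and 7 without KCl culture 5.

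**Figure D3:**
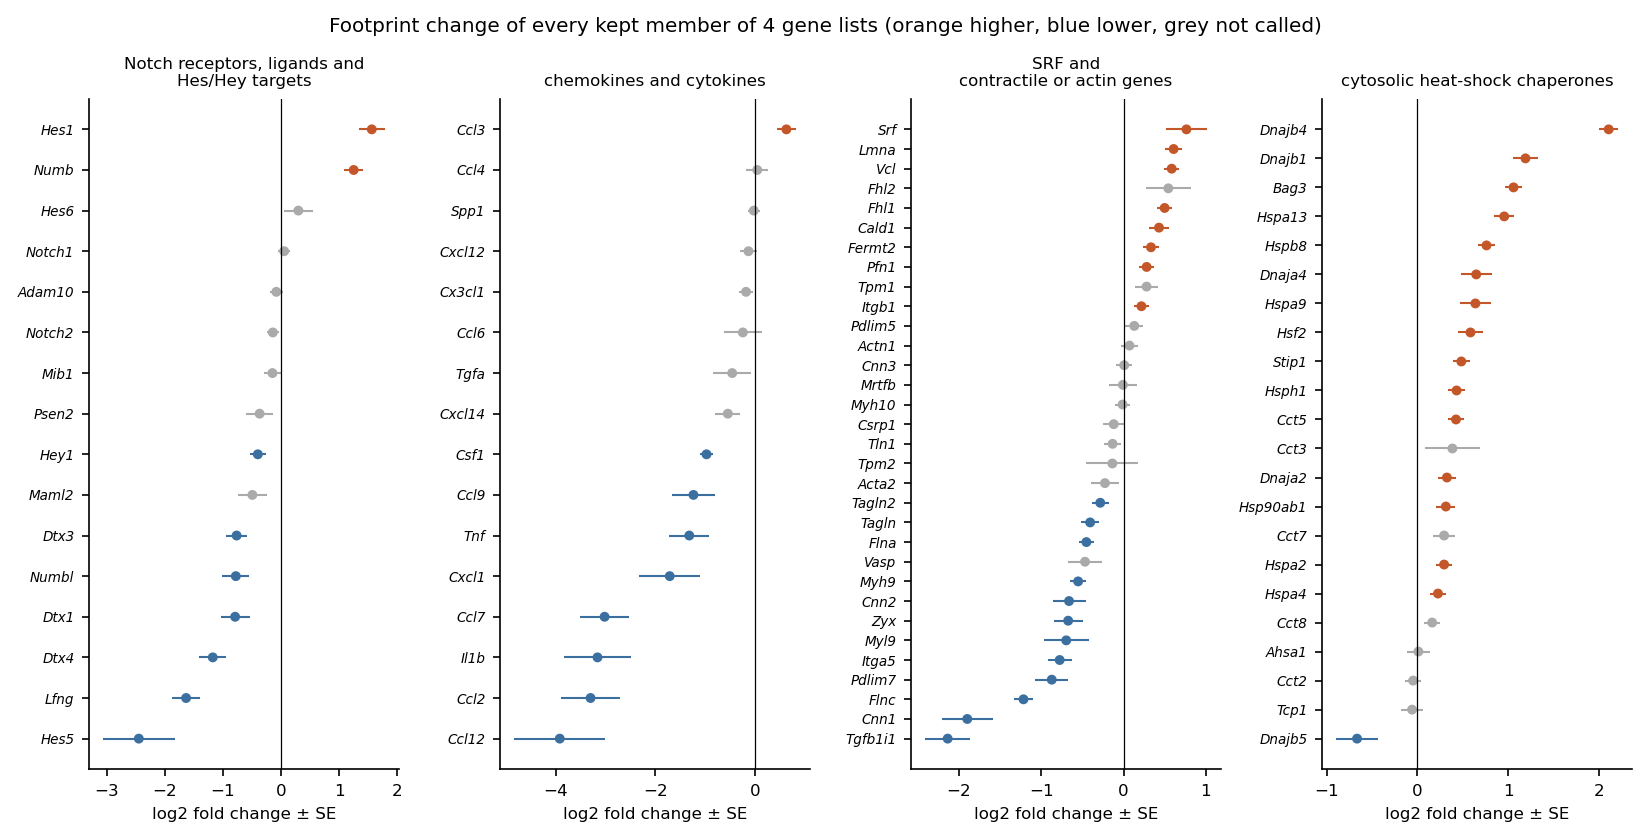
Log2 fold change of CDS footprints, KCl over untreated, with its approximate SE, for every kept member of the Notch, chemokine, SRF and heat-shock lists (orange higher, blue lower, grey not called). Hes1 and Numb lie opposite to the 7 Notch genes that fell, and 15 of the 22 genes of the heat-shock list rose.

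Lists of cell type genes changed in part. Of 22 pan-neuronal genes 8 were higher and 1 lower (median 0.38), and they took 0.945, 0.803 and 0.903% of footprints in untreated cultures and 0.912 and 0.957% in KCl cultures. The intermediate filament Ina had 73.9, 59.7 and 44.9 in untreated cultures and 112 and 162 in KCl cultures (log2 fold change 1.16, SE 0.17), and Elavl3 and Uchl1 rose by 0.75 and 0.51. The untreated cultures differed among themselves in these genes, and Snap25 had 72.4, 34.5 and 54.1 in untreated cultures and 95.2 and 104 in KCl cultures (log2 fold change 0.89, SE 0.26). Of 13 GABAergic genes 6 were higher and 1 lower (median 0.42). The interneuron transcription factors Sp8 and Sp9 rose by 1.15 and 1.07, Sp8 from 71.4, 55.1 and 79.2 to 137 and 155, and the calcium buffer Calb2 fell by 0.82. Of 20 forebrain developmental factors 7 were higher and 4 lower (median 0.06), with Tcf4 and Sox4 higher (0.51 and 0.65). Snap25 did not pass the test without KCl culture 4 (log2 fold change 0.94) and without KCl culture 5 (log2 fold change 0.82). The neuronal list had 13 higher and 0 lower members without untreated culture 1 and 5 and 1 without KCl culture 5. The forebrain factor list had 6 higher and 2 lower members without untreated culture 1, 6 and 1 without KCl culture 4 and 3 and 1 without KCl culture 5.

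Of 33 astrocyte genes 10 were higher and 4 lower (median 0.15, 1 kept through the KCl libraries only), and they took 9.13, 8.46 and 8.76% of footprints in untreated cultures and 9.04 and 9.26% in KCl cultures, so that the groups overlapped. Gfap, the astrocyte filament, had 14614, 15232 and 15002 in untreated cultures and 15009 and 15354 in KCl cultures (log2 fold change 0.02, SE 0.07). Apoe, the main lipid carrier of astrocytes, rose from 18126, 14133 and 16474 to 22242 and 23338 (log2 fold change 0.49, SE 0.08), with 0.06 in RNAseq, and the transcription factor Sox9 fell from 523, 598 and 507 to 297 and 329 (log2 fold change -0.79, SE 0.10). Of 20 microglia genes 7 were higher and 3 lower (median 0.31, 1 kept through the KCl libraries only). The fractalkine receptor Cx3cr1 fell from 89.0, 94.8 and 107 to 53.3 and 51.8 (log2 fold change -0.86, SE 0.18), and the homeostatic marker Tmem119 by 2.03. In the other direction, the 7 microglia genes that rose did so by 0.31 to 0.50, and 16 of the 20 had a positive log2 fold change. Of 17 oligodendrocyte lineage genes 2 were higher and 3 lower (median 0.11), with Bcas1 at 438, 464 and 433 in untreated cultures and 207 and 228 in KCl cultures (log2 fold change -1.03, SE 0.11). Of 11 endothelial, mural and fibroblast genes 3 were higher and 5 lower (median -0.23). Tmem119 did not pass the test without KCl culture 5 (log2 fold change -1.67). The astrocyte list had 14 higher and 7 lower members without untreated culture 2, 6 and 4 without KCl culture 4, 5 and 4 without KCl culture 5 and 6 and 7 with library totals. The microglia list had 1 higher and 2 lower members without KCl culture 4, 1 and 1 without KCl culture 5 and 2 and 3 with library totals. The oligodendrocyte list had 4 higher and 3 lower members without untreated culture 1 and 0 and 1 without KCl culture 5. The endothelial and mural list had 1 higher and 5 lower members without untreated culture 1, 1 and 4 without untreated culture 3, 1 and 4 without KCl culture 4 and 0 and 3 without KCl culture 5. These lists move with the treatment in part, and their part in the other results was not tested.

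Among synapse genes, of 30 presynaptic genes 3 were higher and 2 lower (median 0.03), and of 29 postsynaptic genes 3 were higher and 2 lower (median 0.10, 2 kept through the KCl libraries only). The vesicle fusion gene Napa fell (log2 fold change -0.58, SE 0.15), and the vesicle SNARE Vamp2 and the receptor subunit Gria2 did not pass (-0.03 and 0.17). Of 13 voltage-gated and potassium channel genes none was higher, by edgeR, DESeq2 or at an unadjusted p under 0.05, and 5 were lower (median -0.29), and their part of the footprints was 0.142, 0.141 and 0.138% in untreated cultures and 0.0972 and 0.0956% in KCl cultures. The astrocyte channel Kcnj10 fell from 572, 630.5 and 565 to 432 and 429 (log2 fold change -0.46, SE 0.10) and the leak channel Kcnk1 from 243, 208 and 177 to 118 and 121 (log2 fold change -0.84, SE 0.14). The presynaptic list had 7 higher and 2 lower members without untreated culture 1, 1 and 2 without KCl culture 4 and 1 and 1 without KCl culture 5. The postsynaptic list had 3 higher and 4 lower members without untreated culture 2, 0 and 1 without KCl culture 5 and 2 and 3 with library totals. The channel list had 0 higher and 2 lower members without KCl culture 5.

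Of 26 axon guidance genes 2 were higher and 4 lower (median -0.10). The ligand Efnb2 rose from 94.9, 88.4 and 93.7 to 279 and 288 (log2 fold change 1.63, SE 0.12), and the semaphorin gene Sema4b and the receptor Nrp1 fell by 0.72 and 0.60. Of 23 cadherins and contactins 4 were higher and 1 lower (median -0.02), with Pcdh8, which takes part in internalizing cadherin at synapses, at 208, 164 and 189 in untreated cultures and 295 and 417 in KCl cultures (log2 fold change 0.95, SE 0.13). Of 35 microtubule motors and associated proteins 13 were higher and 1 lower (median 0.17, 3 kept through the KCl libraries only). Ndel1, a dynein regulator, rose from 53.8, 67.5 and 75.3 to 246 and 241 (log2 fold change 1.95, SE 0.14) and the dynein chain Dync1li1 by 1.41, whereas the kinesin Kif1c fell from 78.3, 93.3 and 77.9 to 24.1 and 25.9 (log2 fold change -1.73, SE 0.21) with 0.09 in RNAseq. Of 12 neuropeptide and granule genes 2 were higher and none lower, by edgeR, DESeq2 or at an unadjusted p under 0.05 (median 0.30, 1 kept through the KCl libraries only), and the carboxypeptidase Cpe did not pass (0.01). The cadherin list had 4 higher and 3 lower members without untreated culture 2, 2 and 1 without KCl culture 4, 2 and 0 without KCl culture 5 and 2 and 4 with library totals. The motor list had 17 higher and 3 lower members without untreated culture 2 and 8 and 1 without KCl culture 5. The neuropeptide list had 0 higher and 0 lower members without KCl culture 5. Without KCl culture 4 the neuropeptide list had 1 higher member.

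Of 36 DNA replication and G1/S genes 4 were higher and 7 lower (median -0.19, 1 kept through the KCl libraries only). Cdkn1a, the inhibitor p21, rose from 101, 84.4 and 132 to 229 and 251 (log2 fold change 1.26, SE 0.14) and the nuclease Fen1 by 1.18, while the origin subunit Orc5 fell from 49.9, 63.8 and 54.1 to 29.2 and 20.6 (log2 fold change -1.23, SE 0.24). Of 24 mitosis genes 4 were higher and 1 lower (median 0.19, 3 kept through the KCl libraries only). Of 17 DNA damage and p53 target genes 5 were higher and 5 lower (median 0.08). Mcl1, an inhibitor of apoptosis, rose from 258, 256 and 314 to 634 and 688 (log2 fold change 1.29, SE 0.10), and its relative Bcl2 fell from 12.2, 13.9 and 15.8 to 2.54 and 5.32 (log2 fold change -1.62, SE 0.46). Bcl2 did not pass the test without KCl culture 4 (log2 fold change -1.33). Its value was -2.38 without KCl culture 5. The replication list had 3 higher and 3 lower members without KCl culture 5. The mitosis list had 1 higher and 1 lower member without untreated culture 1, 7 and 1 without untreated culture 2, 1 and 1 without KCl culture 4 and 0 and 0 without KCl culture 5. The p53 target list had 5 higher and 1 lower member without KCl culture 4 and 2 and 1 without KCl culture 5.

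Genes were also grouped by the stem of their symbol, for the 83 stems with at least 8 kept genes, of which only a part is described. Among stems not described further, 0 of 9 Arhgef genes were higher and 5 lower (median -0.76). Of 11 Dusp genes 6 were higher and 2 lower (median 0.55). Among palmitoyltransferases, which attach lipid to proteins, 1 of 9 Zdhhc genes was higher and 5 lower (median -0.82, and -0.003 in RNAseq). For general transcription factors, 1 of 11 Gtf genes was higher and 5 lower (median -0.40, and -0.22 in RNAseq). Subunits of the exocyst, which tethers secretory vesicles, gave more falls than rises, and 1 of 8 Exoc genes was higher and 4 lower (median -0.37, and -0.35 in RNAseq). Histone demethylases lay on the other side, where 6 of 11 Kdm genes were higher and 1 lower (median 0.42, and 0.31 in RNAseq). For RNA-binding motif proteins, 9 of 17 Rbm genes were higher and 2 lower (median 0.39, and 0.24 in RNAseq). Among RNA polymerase subunits, 5 of 20 Polr genes were higher and 8 lower (median -0.27, and -0.22 in RNAseq). For mitochondrial import proteins, 0 of 9 Timm genes were higher and 0 lower (median -0.24, and -0.34 in RNAseq) by edgeR, none passed with DESeq2 and none had an unadjusted p under 0.05. Apart from Arhgef and Dusp, for which it is not given, the sign of each of these medians was the same with library totals and without any single culture. Without KCl culture 4 the numbers higher and lower were 1 and 2 of the Exoc genes, 1 and 3 of the Gtf genes, 2 and 4 of the Polr genes, 5 and 0 of the Rbm genes and 1 and 2 of the Zdhhc genes, and without KCl culture 5 they were 0 and 0 of the Exoc genes, 1 and 1 of the Gtf genes, 2 and 3 of the Polr genes, 5 and 0 of the Rbm genes, 1 and 1 of the Zdhhc genes and 4 and 0 of the Kdm genes.

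The genes with the most footprints per kilobase of coding sequence were Apoe, Tmsb4x, Cst3, Gfap, Mt1, Mt2, Vim, Cpe, Clu and Igfbp5. Apoe stood at 17411 CPM per kilobase in untreated and 24426 in KCl cultures as group means, and Gfap at 11589 and 11768. Mt2, a metallothionein that binds zinc, fell from 1934, 1602 and 1715 CPM to 1208 and 1191 (log2 fold change -0.55, SE 0.09). Igfbp5, which binds insulin-like growth factors, rose from 3233, 3260.1 and 3229 to 4378 and 4709 (log2 fold change 0.49, SE 0.07), with -0.15 in RNAseq. The largest gains in CPM belonged to Apoe (by 6546 between group means), Vim (2410.5), Thbs1 (1929.5), Sqstm1 (1592) and Slc38a2 (1568). Vim did not pass the test without KCl culture 5 (log2 fold change 0.29). The largest loss was that of Ahnak, a giant scaffold protein of membranes, from 8017, 8887 and 8494 to 3377 and 3435 (log2 fold change -1.31, SE 0.08), followed by Ncan, the brain proteoglycan neurocan, from 4581, 4587 and 4534 to 3654 and 3626 (log2 fold change -0.33, SE 0.08). The sphingosine receptor S1pr3 fell from 629.7, 655 and 602 to 157 and 130.2 (log2 fold change -2.16, SE 0.12).

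**Figure D4:**
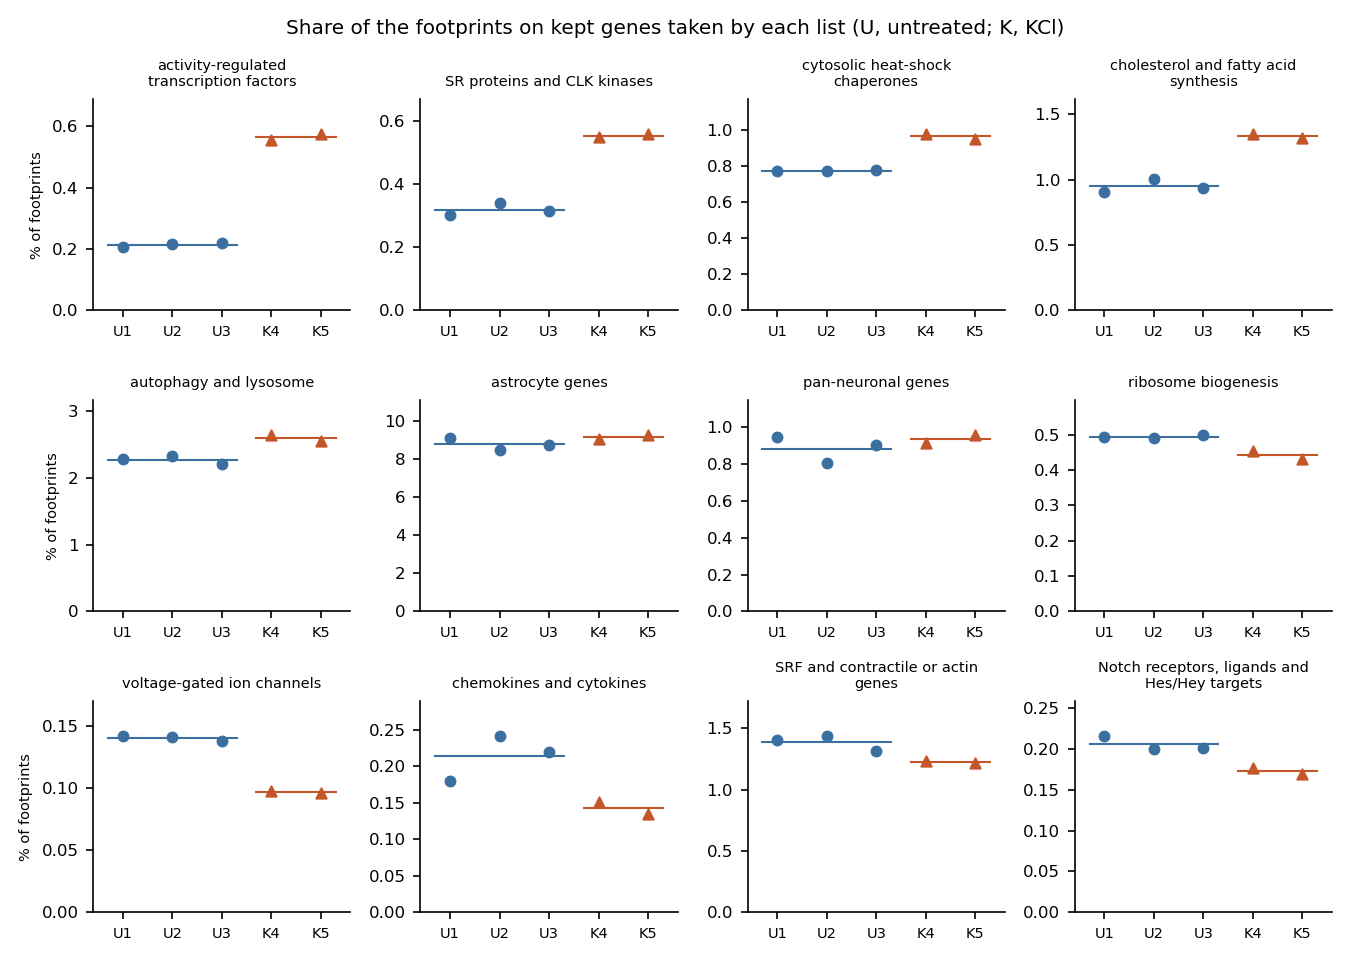
Share of the footprints on all kept genes taken by 12 gene lists, in percent and on a linear axis from 0, in untreated cultures U1 to U3 (circles) and KCl cultures K4 and K5 (triangles), with a line at each group mean. Both KCl cultures lie above every untreated culture for the transcription factor, SR protein, heat-shock, cholesterol and lysosome lists. They lie below for ribosome biogenesis, channels, chemokines, actin and Notch genes, and the groups overlap for astrocyte and pan-neuronal genes.

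RNAseq of the same transcripts, at 3056286 to 3629959 reads per library, called 970 of the 6327 genes higher (15.3%) and 874 lower (13.8%). Of the genes with higher footprints 655 were also higher in RNAseq (53.1% of the footprint calls and 67.5% of the RNAseq calls), 572 did not pass there and 6 were lower. Of those with lower footprints 544 were lower in RNAseq (46.5% of the footprint calls and 62.2% of the RNAseq calls), 609 did not pass and 17 were higher. The RNAseq libraries count all regions of a transcript and have another depth, and the difference between the assays was not tested, so a call in a single assay does not show that the assays differ. Genes chosen after their values were seen show the range. Nfat5 changed by 3.54 in footprints and 1.78 in RNAseq, Tgfb3 by -2.16 and -0.63, and Kif1c by -1.73 and 0.09. Fth1, Azin1, Fxr1, Ddit3, Smo, Ccni and Zfp106 are further cases with RNAseq values between -0.31 and 0.16. Srf went the other way, with 0.76 in footprints and 2.33 in RNAseq.

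**Figure D5:**
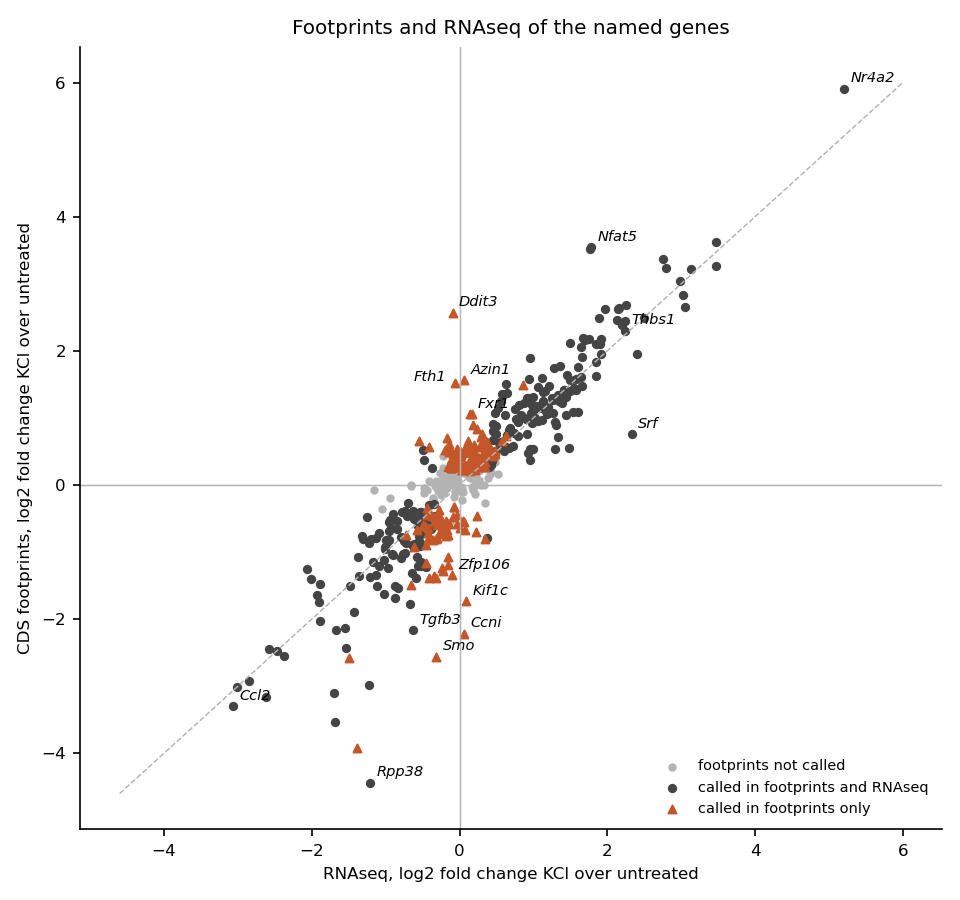
Log2 fold change of CDS footprints (vertical) against that of RNAseq (horizontal), KCl over untreated, for the genes named by rule; dark circles passed the edgeR test in both assays, orange triangles in footprints only, grey circles not in footprints, and the dashed line marks equal change. Nr4a2 and Thbs1 lie near the line, Smo, Ccni and Rpp38 below it and Ddit3 and Nfat5 above it.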

How the data were processed

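Whole-number counts of reads per Ensembl transcript region were deposited by the authors, who removed rRNA and other degenerate sequences, aligned the reads (STAR 2.3.1z8 and Bowtie2 2.2.2 stand in the submitters' processing notes) and counted them with bedtools 2.20.1 without normalization. Region b, the coding sequence, was used for RF and all regions for RNAseq. Transcripts were matched to GENCODE M21 on GRCm38, which covered 96.9% of 22534, and 1.59% of CDS footprints were not used. Reads that fit several isoforms or paralogs cannot be assigned with certainty, and 41.4% of kept genes had more than 1 transcript with footprints.

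The kept genes were tested with edgeR 4.0.16 (TMM, quasi-likelihood, Benjamini-Hochberg over 6327 genes) in R 4.3.3, checked on simulated data. The SE is the size of the log2 fold change over the square root of F. Depth was 1463654 to 7719915 reads per RF library, and intervals cover counting error only. Members, gene lists and tests were chosen with earlier results of these data known.

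Genes were named by a rule: the 15 largest rises and 15 largest falls among called genes with groups that did not overlap and at least 50 footprints, up to 3 rises, 3 falls and 3 most occupied members of each list, the 10 most occupied genes, the 10 largest gains and losses in CPM, and cell type markers. Cxcl1, Hsph1, Cnn2 and Myl9 were added for their promoter windows, after their values were seen, and a few genes are not reported here. Alternatives were DESeq2 1.42.0, other scalings and filters, all transcripts, thinning and leaving out each culture.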

Additional observations from a re-analysis of the deposited data

How the results depend on the processing

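No paired analysis was possible because untreated cultures 1 to 3 and KCl cultures 4 and 5 share no number. The 2403 calls became 4172 with all transcripts (2134 higher, 2038 lower), a table with more features, and 755 genes were lower with DESeq2 (1701 called in all), for which the cause was not tested. Leaving out a culture gave 1230 to 2577 calls, 736 to 1324 higher and 494 to 1253 lower, and 1171 to 1865 calls in RNAseq beside 1844. Where 1 KCl culture was left, it was assumed to vary like the other group. The number of the 63 lists with a median above that of all genes (41) ranged from 39 to 49, and of the 83 symbol families 35 lay above it, or 56 with no filter. Of 945 list medians 784 moved by less than the spread between cultures. The settings differed: 37 of the 63 medians moved further with library totals, 25 with all transcripts, 22 with the joint RNAseq and RF limit and 0 with DESeq2.

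Of 206 called genes in the text 191 passed in every alternative that tested them. The text names 214 genes and the rule named 479, so this share describes the genes in the text only. Called genes that the rule named and the text leaves out are not in this count. Some of them did not pass with DESeq2 or with library totals. No called gene in the text changed sign under the alternatives run. Uncalled genes near 0 did: Cpe to -0.10 with library totals and -0.023 with the joint RNAseq and RF limit, Gfap to -0.088 and -0.0075 under the same, and Vamp2 to 0.024 with filterByExpr and 0.017 with no filter. Leaving out a culture, Cpe ranged from -0.031 to 0.043, Tmsb4x from -0.21 to 0.066 and Vamp2 from -0.13 to 0.055. Depth was lowest in untreated culture 3 and KCl culture 4, with a median of 56 and 58 footprints per gene, and small changes in genes with few footprints were not detectable.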
